A study of Mus musculus with 18 samples.

Results

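The immediate early and AP-1 genes described here are Fos, Fosb, Fosl1, Jun, Junb, Jund, Egr1, Nr4a1, Ier2 and Ier3, taken by gene symbol from the platform annotation. All 10 were measured, each by 1 array feature, among 16887 genes in the table. They were followed across 18 primary mammary tumour samples of mice of the FVB strain, in the groups Wnt1_iFGFR1 (4 arrays, called iFGFR1 here), Wnt1_iFGFR2 (4 arrays, iFGFR2), Wnt1_iR2 (4 arrays, iR2) and Wnt1 (6 arrays). Every group carries Wnt1 in its label, and every sample title also names MMTV, a viral promoter used to drive transgenes in mammary epithelium. The first 3 are called the receptor groups, after the series title, which sets FGF receptor signalling beside Wnt-1 in mammary tumours. The labels do not spell out iFGFR1, iFGFR2 or iR2 and give no age, inducing agent or time, so iR2 was kept apart from iFGFR2.

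Immediate early genes are switched on within a short time of a growth factor, stress or injury signal, without new protein synthesis. Receptor tyrosine kinases such as the FGF receptors reach them through the ERK kinases and transcription factors such as Elk1 and SRF. The Fos and Jun proteins pair through leucine zippers to form AP-1, which binds DNA and drives genes of growth, matrix breakdown and wound response. The same genes also respond to the handling of tissue between excision and freezing, which the labels do not describe.

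Of the 10 genes, Ier3, Nr4a1 and Egr1 differed over the 4 groups, and the Fos and Jun families did not pass the test. Mean Ier3 and Nr4a1 were higher in the receptor tumours, with the highest mean in iFGFR1, and mean Egr1 was lower. Against Wnt1, Ier3 passed limma's test in iFGFR1 alone, and Nr4a1 and Egr1 passed in iFGFR1 and iFGFR2. In iR2 0 of 10 members passed, where 7.1% of all genes did. By limma's F test with adjustment over all genes the adjusted p was 0.000517 for Ier3, 0.01123 for Nr4a1 and 0.0366 for Egr1. These were 3 of 10 members, where 19.6% of all genes passed the same test. The Egr1 call was kept in 9 of 18 fits that each left out 1 array (highest adjusted p = 0.08859, without Wnt1 replicate 2) and ended with a covariate for the title number of each sample (adjusted p = 0.05226). No other member passed the F test, and Fos came nearest (adjusted p = 0.09666). With the title number as a covariate, the limma calls over the 3 receptor groups together ended for Ier3, Nr4a1 and Egr1 (adjusted p = 0.1487, 0.1252 and 0.1092).

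The upstream sequences of Ier3 and Nr4a1, the members that rose most, are shown to set them beside the motifs of the factors in the list. Each run holds the 250 bases before the start of the gene on the plus strand, from RefSeq on GRCm38.p6, at chr17:35821463-35821712 for Ier3 and chr15:101266596-101266845 for Nr4a1. Capitals mark matches to the motifs searched.
Ier3: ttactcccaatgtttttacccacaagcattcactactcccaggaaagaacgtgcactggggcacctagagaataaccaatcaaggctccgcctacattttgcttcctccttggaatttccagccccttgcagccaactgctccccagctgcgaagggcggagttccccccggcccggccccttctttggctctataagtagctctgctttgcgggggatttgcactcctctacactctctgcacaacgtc
Nr4a1: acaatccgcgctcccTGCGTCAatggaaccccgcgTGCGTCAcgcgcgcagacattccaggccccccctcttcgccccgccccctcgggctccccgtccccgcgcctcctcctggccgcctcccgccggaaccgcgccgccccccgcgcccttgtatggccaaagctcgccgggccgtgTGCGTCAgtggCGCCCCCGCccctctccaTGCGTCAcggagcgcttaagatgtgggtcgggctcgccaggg
The motifs were the AP-1 site TGACTCA, the cyclic AMP element TGACGTCA, the AP-1-like TGCGTCA, the EGR site GCGNGGGCG and the CArG box bound by SRF, each on both strands in windows from 250 bases before to 50 after the start. The Nr4a1 window held 4 copies of TGCGTCA, starting at positions -235, -215, -71 and -42 from the gene start, and 1 EGR match on the opposite strand, written CGCCCCCGC, starting at -60. None of these matches overlapped another. Of 32851 windows in the table, 2.12% held TGCGTCA and 5.55% the EGR motif, and 1 window, that of Nr4a1 itself, held 4 or more copies of TGCGTCA. Fosb had 1 match to TGCGTCA, as its reverse complement TGACGCA, and 1 to the EGR motif, as GCGGGGGCG. The Ier3, Fos, Jun, Junb and Jund windows held no match to any of the 5 motifs. TGACTCA, TGACGTCA and the CArG box were in 5.2%, 1.79% and 1.63% of all windows and in 0 of the 7 member windows. Windows were found for these 7 of the 10 members and not for Egr1, Fosl1 and Ier2. The CArG box was searched as CCWWWWWWGG, where W is A or T, and no motif was allowed a mismatch. Sites that differ from a motif by a base, or lie outside the window, were not searched. A count of 0 therefore does not show that a gene lacks such sites. A match is a run of letters and was not tested for binding.

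Values below compare tumour RNA with whole-mouse reference RNA on the same array, as a log ratio read as base 2, so a value of 0 is a level equal to that of the reference. Differences are between group means on that scale, tested with limma in 1 fit over all genes and 18 arrays, and adjusted p-values are Benjamini-Hochberg over 16887 genes within a comparison, with a threshold of 0.05. The labels do not say that arrays came from separate animals, so p-values measure only the spread of these samples, part of which may be technical. In a bulk tumour sample, fewer cells of a type and less RNA per cell cannot be told apart. The comparisons with Wnt1 share the same 6 Wnt1 arrays. The interquartile range of the ratios on an array was 0.769 to 1.231, and it was 0.769 to 0.8445 on the iR2 arrays and 0.79 on Wnt1 replicate 3. Wnt1 replicate 3 and iFGFR2 replicate 1 each had the lowest mean correlation with the other arrays of its own group, at 0.7469 and 0.7266. Of the iFGFR1 arrays, replicate 4 had 0.7216, the lowest of the 18, and replicate 1 had 0.7387. The results for Fos, Junb, Egr1, Nr4a1 and Ier3 that Wnt1 replicate 3 and iFGFR2 replicate 1 move most are also given without 1 or both. Luminal markers of mammary epithelium stood high against the reference: the 6 averaged 3.04 ± 0.42 in iFGFR1, 2.97 ± 0.29 in iFGFR2, 3.07 ± 0.07 in iR2 and 2.26 ± 0.81 in Wnt1. The 6 basal epithelial markers did not, and averaged -0.71 ± 0.21 in iFGFR1, -0.15 ± 0.07 in iFGFR2, -0.09 ± 0.25 in iR2 and -0.19 ± 0.29 in Wnt1.

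**Figure D1:**
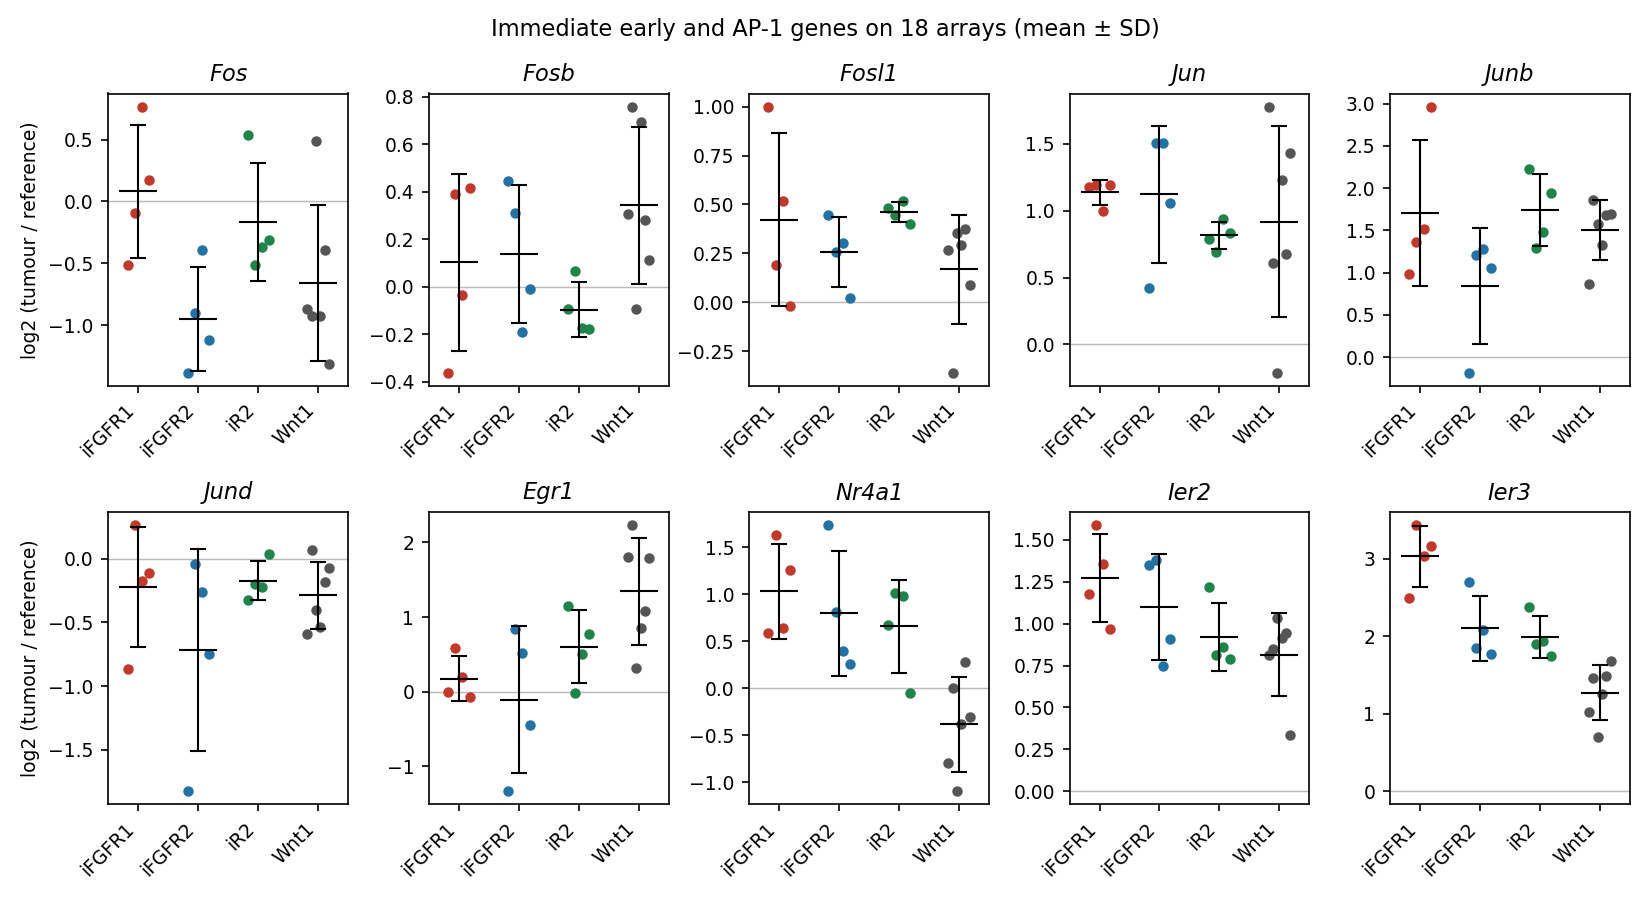
Log2 ratio of tumour to reference for each member (vertical axis, its own range per panel) in the iFGFR1, iFGFR2, iR2 and Wnt1 arrays. Points are arrays, and the black marks give the mean ± SD of the 4, 4, 4 and 6 arrays. For Ier3 all 12 receptor arrays lie above every Wnt1 array, for Nr4a1 10 of 12 do, and for Egr1 6 of 12 lie below every Wnt1 array.

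Fos, a subunit of AP-1, stood near or below the reference in most tumours. It read -0.52, -0.10, 0.77 and 0.18 on the iFGFR1 arrays, -1.39, -0.90, -0.39 and -1.12 on the iFGFR2 arrays and 0.53, -0.52, -0.37 and -0.31 on the iR2 arrays. The Wnt1 arrays ran from -1.31 through a median of -0.90 to 0.49. Wnt1 replicate 3 held the highest Wnt1 value and overlapped the iFGFR1 arrays, while the other Wnt1 arrays lay at -0.39 or lower. Wnt1 replicate 5, at -0.39, still lay above iFGFR1 replicate 1, at -0.52. The difference of 0.74 between iFGFR1 (0.08 ± 0.54) and Wnt1 (-0.66 ± 0.63) did not pass (95% interval 0.08 to 1.40, adjusted p = 0.1228). Without Wnt1 replicate 3 it was 0.97 with an adjusted p of 0.01972, and of the 18 arrays this was the 1 whose removal alone gave the call. The iFGFR2 mean of -0.95 ± 0.42 was 1.03 below iFGFR1 without passing (adjusted p = 0.1342).

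Fosb and Fosl1, the latter also known as FRA-1, varied less between arrays of a group. Fosb read -0.36, 0.39, -0.04 and 0.42 in iFGFR1, 0.45, 0.31, -0.19 and -0.01 in iFGFR2, -0.10, 0.07, -0.18 and -0.18 in iR2, and from -0.09 through a median of 0.29 to 0.76 in Wnt1. Its groups overlapped throughout, and the widest gap, iR2 below Wnt1 by 0.44, did not pass (adjusted p = 0.2016). Fosl1 read 0.999, 0.19, 0.52 and -0.02 in iFGFR1, 0.45, 0.26, 0.30 and 0.02 in iFGFR2, and 0.48, 0.45, 0.52 and 0.40 in iR2, with a Wnt1 range of -0.36 to 0.37 and median of 0.28. All 4 iR2 arrays lay just above every Wnt1 array. The difference was 0.29 (95% interval -0.12 to 0.70, adjusted p = 0.3996), and 6.24% of all genes had iR2 arrays wholly above Wnt1 arrays.

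The Jun family supplies the partners of Fos. Jun and Junb stood above the reference in nearly every tumour and Jund slightly below it. Jun read 1.17, 1.19, 1.0 and 1.19 in iFGFR1, 0.42, 1.505, 1.503 and 1.06 in iFGFR2, 0.79, 0.69, 0.94 and 0.84 in iR2, and from -0.21 through a median of 0.95 to 1.78 in Wnt1. The Wnt1 arrays spanned 1.99 and enclosed all 12 receptor arrays. All 4 iR2 arrays lay below the iFGFR1 arrays, a difference of -0.32 that did not pass (adjusted p = 0.5672), where 13% of all genes lay wholly below in the same way.

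Junb, a Jun protein that often restrains Jun, read 0.98, 1.37, 1.51 and 2.96 in iFGFR1, -0.18, 1.21, 1.28 and 1.06 in iFGFR2, 2.23, 1.29, 1.49 and 1.95 in iR2, and from 0.87 through a median of 1.63 to 1.86 in Wnt1. The highest and lowest of the 18 values came from single arrays, iFGFR1 replicate 4 and iFGFR2 replicate 1. The iR2 arrays lay wholly above the iFGFR2 arrays, by 0.90 (95% interval 0.12 to 1.68), without passing (adjusted p = 0.2448), and 4.35% of all genes lay wholly above in this way. Without iFGFR2 replicate 1 the difference was 0.56. Jund read -0.87, 0.26, -0.17 and -0.11 in iFGFR1, -1.82, -0.04, -0.26 and -0.75 in iFGFR2, -0.32, -0.20, -0.22 and 0.04 in iR2, and from -0.59 through a median of -0.29 to 0.07 in Wnt1. Its groups overlapped, and the lowest value was again that of iFGFR2 replicate 1. No comparison of Junb or Jund passed, and the lowest adjusted p was 0.2448 for Junb and 0.3951 for Jund.

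Egr1, a zinc finger factor induced through SRF and Elk proteins, was highest in Wnt1 tumours. It read -0.01, 0.59, 0.20 and -0.07 in iFGFR1, -1.33, 0.84, 0.52 and -0.45 in iFGFR2, 1.14, -0.02, 0.50 and 0.78 in iR2, and from 0.31 through a median of 1.44 to 2.23 in Wnt1. In iFGFR1 3 of 4 arrays and in iFGFR2 2 of 4 lay below every Wnt1 array, and their other arrays overlapped only with Wnt1 replicate 3, the lowest Wnt1 array. Egr1 averaged 0.18 ± 0.30 in iFGFR1 and 1.35 ± 0.72 in Wnt1, so that it fell by 1.17 (SE 0.39, 95% interval -1.98 to -0.36, adjusted p = 0.04616), and its level in Wnt1 was 2.25-fold that in iFGFR1. In iFGFR2 it averaged -0.10 ± 0.98 and fell by 1.45 (SE 0.39, 95% interval -2.26 to -0.64, adjusted p = 0.04391). In iR2 the difference of -0.75 did not pass (95% interval -1.55 to 0.06, adjusted p = 0.2569).

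The 2 Egr1 calls depended on single arrays and on the settings of the fit. Of 18 fits that each left out 1 array, 7 called it in iFGFR1 (highest adjusted p = 0.1075, without iFGFR1 replicate 1) and 5 in iFGFR2 (highest adjusted p = 0.1829, without iFGFR2 replicate 1). Without Wnt1 replicate 3 and iFGFR2 replicate 1 together, the adjusted p was 0.004085 in iFGFR1, 0.05218 in iFGFR2 and 0.04679 in iR2. For iFGFR1 the call also ended with array weights (adjusted p = 0.07715) and the title covariate (adjusted p = 0.05987). The iFGFR2 call ended with scaling to a common spread (adjusted p = 0.05261), array weights (adjusted p = 0.06772) and only the arrays compared (adjusted p = 0.1095). Over the 3 receptor groups Egr1 averaged 0.22 ± 0.67 and lay 1.12 below Wnt1 (SE 0.30, adjusted p = 0.01915), and this call ended without Wnt1 replicate 2 or 6 (highest adjusted p = 0.06666, without replicate 2) and with a covariate for the number in each sample title (adjusted p = 0.1092).

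Nr4a1, an orphan nuclear receptor also called Nur77, was below the reference in most Wnt1 tumours and above it in most receptor tumours. It read 0.59, 1.63, 0.64 and 1.26 in iFGFR1, 1.73, 0.81, 0.40 and 0.25 in iFGFR2, 0.68, 1.02, 0.99 and -0.05 in iR2, and from -1.09 through a median of -0.34 to 0.28 in Wnt1. Every Wnt1 array was exceeded by 4 of 4 arrays in iFGFR1, 3 of 4 in iFGFR2 and 3 of 4 in iR2. In iFGFR1 4.88% of all genes lay wholly above Wnt1 in this way. Its mean was 1.03 ± 0.50 in iFGFR1 and -0.38 ± 0.50 in Wnt1, a rise of 1.41 (SE 0.32, 2.66-fold, 95% interval 0.75 to 2.08, adjusted p = 0.005643) that was called in 18 of 18 fits with 1 array left out.

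In iFGFR2 Nr4a1 averaged 0.80 ± 0.67 and rose by 1.18 (SE 0.32, 2.27-fold, adjusted p = 0.04508), a call kept in 8 of 18 such fits and lost without iFGFR2 replicate 1 (adjusted p = 0.1849). In iR2 it averaged 0.66 ± 0.49, and the difference of 1.04 lay just short of the threshold (95% interval 0.38 to 1.70, adjusted p = 0.05167). That iR2 difference depended on the settings: 7 of 10 others called it, with adjusted p from 0.003799 to 0.5901. It was called in 4 of 18 fits with 1 array left out. The receptor groups did not differ from each other in Nr4a1 by the test (lowest adjusted p = 0.5398), with intervals that reach from -1.10 to 0.36 for iR2 against iFGFR1 and from -0.96 to 0.50 for iFGFR2 against iFGFR1. Pooled, the 12 receptor arrays averaged 0.83 ± 0.53, which was 1.21 above Wnt1 (SE 0.25, 2.32-fold, adjusted p = 0.004027). This pooled call ended with a covariate for the title number (adjusted p = 0.1252), and the iFGFR2 difference was 0.73 without Wnt1 replicate 3 and iFGFR2 replicate 1 together (adjusted p = 0.1835). The iFGFR2 call also ended with quantile normalization, scaling, array weights, only the arrays compared and the title covariate (adjusted p = 0.05127, 0.07355, 0.1388, 0.08606 and 0.07965).

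Ier2, a small nuclear protein of the early response, stood above the reference on all 18 arrays. It read 1.18, 1.59, 1.36 and 0.97 in iFGFR1, 1.35, 1.38, 0.75 and 0.91 in iFGFR2, 1.22, 0.81, 0.86 and 0.79 in iR2, and from 0.34 through a median of 0.88 to 1.04 in Wnt1. In iFGFR1 3 of 4 arrays lay above every Wnt1 array, and the difference of 0.46 did not pass (95% interval 0.07 to 0.85, adjusted p = 0.1075).

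Ier3, a survival-related early response gene also called IEX-1, stood above the reference on all 18 arrays and was lowest in Wnt1. It read 2.49, 3.43, 3.04 and 3.16 in iFGFR1, 2.71, 1.86, 2.08 and 1.77 in iFGFR2 and 2.38, 1.90, 1.94 and 1.74 in iR2. The Wnt1 arrays ran from 0.71 through a median of 1.36 to 1.68. All 12 receptor arrays lay above every Wnt1 array, which 0.497% of all genes did. In iFGFR2 alone 2.5% of all genes lay wholly above Wnt1.

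Ier3 averaged 3.03 ± 0.40 in iFGFR1 and 1.27 ± 0.36 in Wnt1, a rise of 1.76 (SE 0.23, 3.39-fold, 95% interval 1.27 to 2.25, adjusted p = 6.889e-05), called in 18 of 18 fits with 1 array left out. In iFGFR2 it averaged 2.10 ± 0.42, and the difference of 0.83 lay just short of the threshold (95% interval 0.34 to 1.32, adjusted p = 0.0524). The highest iFGFR2 value was that of replicate 1, and without it and Wnt1 replicate 3 the difference was 0.52 (adjusted p = 0.2014). The iFGFR2 difference was called in 2 of 10 other settings, centring and quantile normalization (adjusted p from 0.01456 to 0.2014 over the 10). It was called in 3 of 18 fits with 1 array left out. In iR2 Ier3 averaged 1.99 ± 0.27, with a difference of 0.72 (95% interval 0.23 to 1.21, adjusted p = 0.06697). That iR2 value depended on the settings: it was 0.05 with the title covariate (adjusted p = 0.9734) and 1.11 with scaling (adjusted p = 0.006081), and it was called with array weights (adjusted p = 0.002842) and with only the arrays compared (adjusted p = 0.03388). Over the 3 receptor groups together the rise was 1.10 (SE 0.18, 2.15-fold, adjusted p = 0.0009274), and this call ended with the title covariate too (adjusted p = 0.1487).

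Ier3 was the 1 member of 10 that passed a test between receptor groups. All 4 iR2 arrays lay below the iFGFR1 arrays, as they did for 13% of all genes, and 11.7% of all genes were called in that comparison. Ier3 was lower in iR2 by 1.04 (SE 0.26, 95% interval -1.58 to -0.51, adjusted p = 0.01174), so that the iFGFR1 level was 2.06-fold that of iR2. This call ended when arrays were scaled to a common spread (difference -0.36, adjusted p = 0.4033) and with a covariate for the title number of each sample (difference -1.48, adjusted p = 0.05017). The ratios of the iR2 arrays spread less than those of the iFGFR1 arrays, whose interquartile ranges were 0.874 to 1.135. The iFGFR2 arrays were 0.93 below iFGFR1 without passing (95% interval -1.46 to -0.40, adjusted p = 0.0641). Of 18 fits with 1 array left out, 3 called this difference (adjusted p from 0.02361, without iFGFR2 replicate 1, to 0.1639 over the 18). It was also called with quantile normalization, and with Wnt1 replicate 3 and iFGFR2 replicate 1 both left out. The iR2 and iFGFR2 arrays differed by -0.11 (95% interval -0.65 to 0.42, adjusted p = 0.889).

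**Figure D2:**
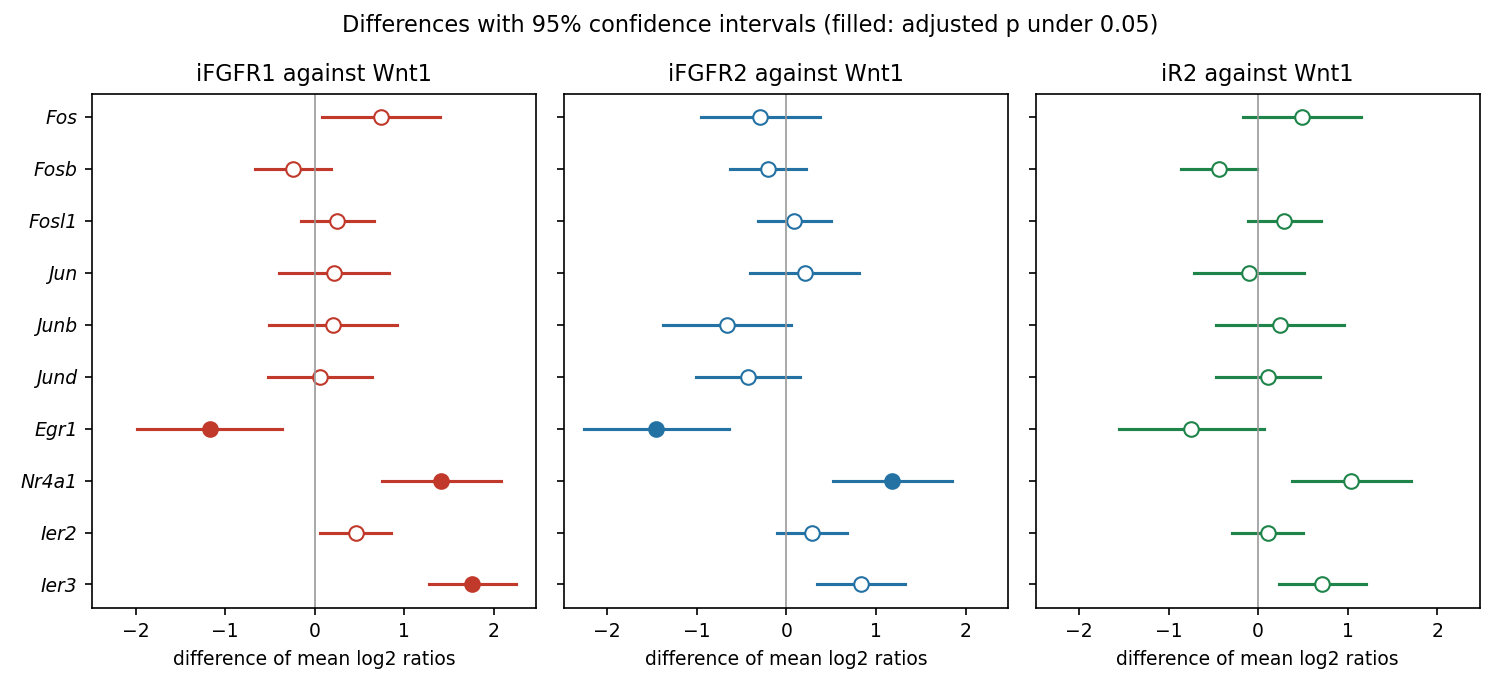
Difference in mean log2 ratio from Wnt1 (horizontal axis) for each member in iFGFR1, iFGFR2 and iR2, with 95% confidence intervals from the limma fit. Filled points passed the threshold: Egr1, Nr4a1 and Ier3 in iFGFR1, Egr1 and Nr4a1 in iFGFR2, and none in iR2.

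Counted over the members, 3 of 10 passed in iFGFR1 against Wnt1 (2 rose and 1 fell), where 15.4% of all genes passed (8.38% higher and 7.06% lower). In iFGFR2 2 of 10 passed (1 rose and 1 fell), against 3.43% of all genes (1.97% higher and 1.46% lower), and in iR2 0 of 10 passed, against 7.1%, although 3 had an unadjusted p under 0.05. The 3 receptor groups together gave 3 of 10 (2 rose and 1 fell), against 12.5% of all genes (6.9% higher and 5.62% lower). Between receptor groups 0 of 10 passed for iFGFR2 against iFGFR1, where 2.13% of all genes did and 3 members had an unadjusted p under 0.05. For iR2 against iFGFR1 1 of 10 passed, lower, against 11.7% in either direction and 6.84% lower, and for iR2 against iFGFR2 0 of 10, against 1.34%, with 2 at an unadjusted p under 0.05. The median difference of the members from Wnt1 was 0.24 in iFGFR1, -0.06 in iFGFR2 and 0.17 in iR2, where the medians of all genes were 0.02, 0.01 and -0.05.

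In the order of the group means no neighbouring pair of groups differed by the test for any of the 10 members. For Ier3 the order was iFGFR1, iFGFR2, iR2 and Wnt1, with gaps of 0.93, 0.11 and 0.72. Nr4a1 had the same order, with gaps of 0.23, 0.14 and 1.04. Egr1 ran from Wnt1 down through iR2 and iFGFR1 to iFGFR2, with gaps of 0.75, 0.42 and 0.28.

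The members also differed in how much arrays of 1 group varied. The within-group SD was 0.68 for Egr1, larger than that of 93.9% of all genes, 0.59 for Junb (89%), 0.54 for Nr4a1 (84.5%) and 0.54 for Fos (84.4%). Ier3 had 0.36, near the median of all genes of 0.37, and Ier2 had 0.26, larger than 15.2% of genes. Among deviations from the group mean over the 18 arrays, the 45 pairs of members had a median Pearson r of 0.036, with 6 pairs over 0.5 and 3 under -0.5. Ier3 and Nr4a1 had the highest, at 0.777 (Spearman 0.792, and 0.66 without the 2 most distant arrays). Jund and Egr1 had 0.694, Fosb and Nr4a1 0.673, and Fosl1 and Junb the lowest, -0.605. Egr1 had 0.104 with Ier3 and -0.11 with Nr4a1. These coefficients are a description, since all members on an array share its RNA, hybridisation and spread of ratios.

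**Figure D3:**
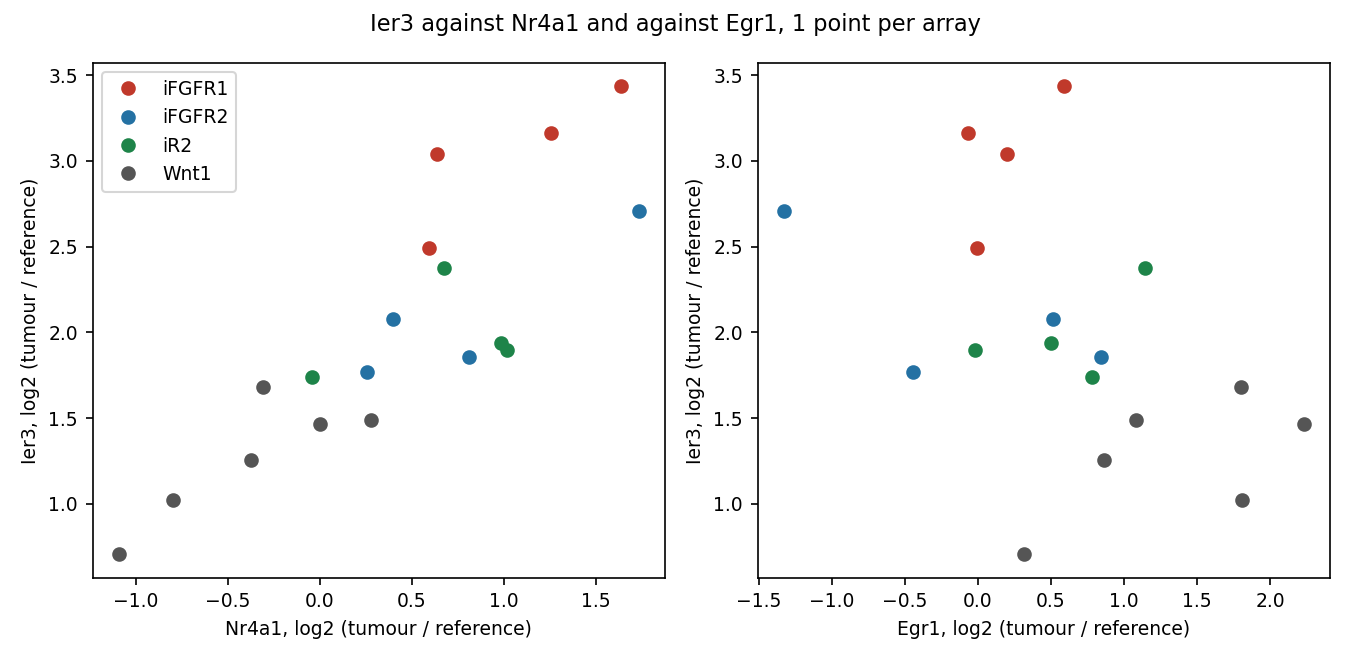
Log2 ratio of Ier3 (vertical axes) against that of Nr4a1 (left) and of Egr1 (right), 1 point per array, coloured by group. Within groups Ier3 and Nr4a1 vary together (r = 0.777 over 18 arrays after removal of group means) while r is 0.104 for Ier3 and Egr1.

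Over all 18 arrays, groups included, the genes most like Ier3 by Pearson r were Acsl4 (0.941), an acyl-CoA synthetase gene, Arg1 (0.917), which encodes arginase, and Abhd2 (0.884). Those most like Nr4a1 were the cytokine receptor gene Il20rb (0.892), the glycogen phosphorylase gene Pygl (0.888) and the water channel gene Aqp5 (0.887). Those most like Egr1 were Eepd1 (0.945), Nptn (0.926), which encodes neuroplastin, and Crim1 (0.908). The points share group differences as well as arrays: from Wnt1, Acsl4 differed by 2.14, 0.79 and 0.88 in iFGFR1, iFGFR2 and iR2, Il20rb by 2.35, 1.87 and 1.67, and Crim1 by -1.55, -1.77 and -1.04.

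Other immediate early genes moved in both directions in iFGFR1 tumours. Of 30 measured, 6 rose and 5 fell (median difference 0.13, where all genes had 0.02), beside the 15.4% of all genes called there in either direction. Arc, an activity-induced gene best known in neurons, stood at 2.38 in iFGFR1 and 1.15 in Wnt1, a rise of 1.23 (SE 0.28, adjusted p = 0.005418). Btg2, an antiproliferative gene, rose by 1.05 (SE 0.23, adjusted p = 0.00454) and its relative Btg1 fell by 1.02 (SE 0.21, adjusted p = 0.003309). The GTPase gene Rhob rose by 0.75 (SE 0.19, adjusted p = 0.01192).

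In iFGFR2, where 3.43% of all genes were called, 0 of the 30 rose and 1 fell, Ier5l, which stood at 0.46 in iFGFR2 and 1.43 in Wnt1 (difference -0.97, adjusted p = 0.04167). In iR2, where 7.1% were called, 2 rose and 1 fell. Ccn1, which encodes a matricellular protein, rose by 0.91 (adjusted p = 0.04037), Myc by 0.63 (adjusted p = 0.0409), and Ier5l fell by 0.99 (adjusted p = 0.02406). For iFGFR2 against iFGFR1 1 of the 30 passed, Arc, lower by 1.66 (adjusted p = 0.005109), where 2.13% of all genes passed. For iR2 against iFGFR1 7 passed, 5 higher and 2 lower, where 11.7% of all genes passed. Mcl1 was higher in iR2 by 0.84 and Myc by 0.66 (adjusted p = 0.009923 and 0.03544). Arc was lower by 1.26 and Btg2 by 0.91 (adjusted p = 0.01025 and 0.02302). For iR2 against iFGFR2 1 passed, Ccn2, higher by 1.36 (adjusted p = 0.04176), where 1.34% of all genes passed.

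Known AP-1 target genes were called most often in iFGFR1, as all genes were (15.4% of them in iFGFR1, 3.43% in iFGFR2 and 7.1% in iR2). Of 22 measured, 5 rose and 0 fell in iFGFR1 (median difference 0.33, all genes 0.02), 0 passed in iFGFR2 (median -0.20, all genes 0.01, with 5 at an unadjusted p under 0.05) and 1 rose in iR2 (median -0.14, all genes -0.05). Hbegf, a ligand of the EGF receptor, stood at 1.04 in iFGFR1 and -0.62 in Wnt1, a rise of 1.66 (SE 0.27, 3.17-fold, adjusted p = 0.0004526). The urokinase receptor gene Plaur rose by 0.96 (adjusted p = 0.009508) and the collagenase gene Mmp13 by 0.85 (adjusted p = 0.0123). Mmp13 stood far below the reference, at -3.53 in iFGFR1 and -4.38 in Wnt1, and its signal over background is unknown. Phlda1 rose by 1.39 in iFGFR1 (adjusted p = 0.02538) and by 1.63 in iR2 (adjusted p = 0.0214). The difference between groups was tested too: 5 of the 22 were lower in iR2 than in iFGFR1, where 11.7% of all genes were called and 6.84% were lower. Among them, Hbegf was lower by 2.23 (adjusted p = 0.0001486), Mmp13 by 1.35 (adjusted p = 0.001212), the cornified envelope gene Sprr1b by 1.58 (adjusted p = 0.006832) and the gelatinase gene Mmp9 by 0.94 (adjusted p = 0.01407). Mmp13 and Mmp9 lay far below the reference here too, at -4.88 and -3.54 in iR2 and -3.53 and -2.59 in iFGFR1. Hbegf was also lower in iFGFR2 than in iFGFR1, by 1.86 (adjusted p = 0.002082).

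Partners of AP-1 and the kinases and factors upstream of it were counted in the same way, beside the same shares of all genes (15.4%, 3.43% and 7.1%). Of 23 measured, 0 rose and 1 fell in iFGFR1, 0 passed in iFGFR2 (lowest adjusted p = 0.06642, 4 at an unadjusted p under 0.05) and 1 rose in iR2. The 1 that fell was Batf, a leucine zipper partner of Jun, at -0.07 in iFGFR1 and 1.12 in Wnt1 (difference -1.19, SE 0.32, adjusted p = 0.01634). Batf was higher in iFGFR2 than in iFGFR1 by 1.56 (adjusted p = 0.02261) and higher in iR2 than in iFGFR1 by 1.42 (adjusted p = 0.01206). Atf2, which also pairs with Jun, rose by 0.70 in iR2 (adjusted p = 0.03954). Message levels say nothing of the phosphorylation through which these kinases act.

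**Figure D4:**
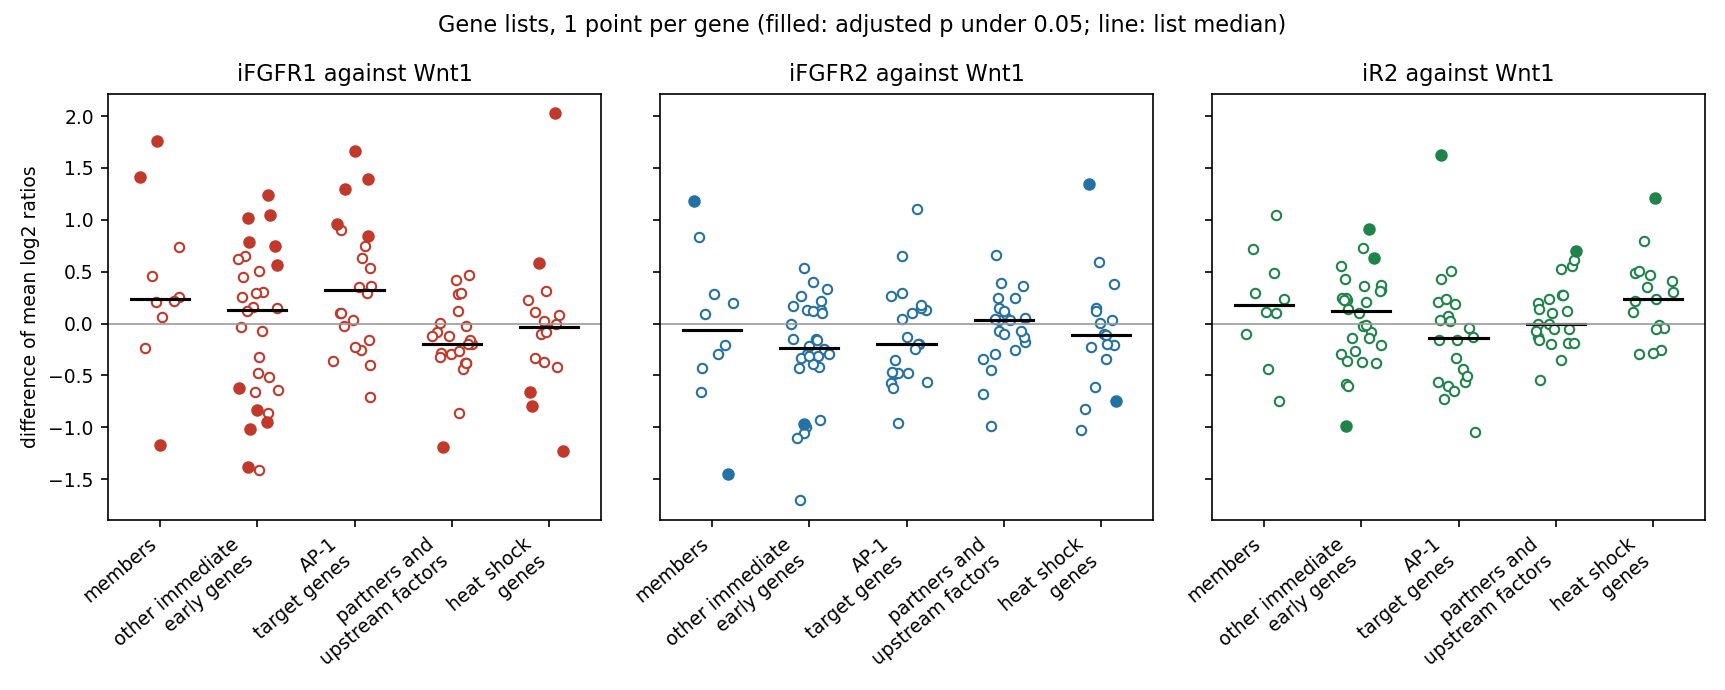
Difference in mean log2 ratio from Wnt1 (vertical axis) for each measured gene of 5 lists in iFGFR1, iFGFR2 and iR2. Filled points passed the threshold and black lines are list medians. In iFGFR1 5 AP-1 target genes passed, all higher, and 11 other immediate early genes passed, 6 higher and 5 lower.

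Genes that respond to heat and to tissue handling moved in both directions. Of 17 heat shock genes, 2 rose and 3 fell in iFGFR1, 1 rose and 1 fell in iFGFR2, and 1 rose and 0 fell in iR2, where 15.4%, 3.43% and 7.1% of all genes were called. Their mean level was 0.02 ± 0.10 in iFGFR1 (range -0.07 to 0.12), -0.04 ± 0.27 in iFGFR2 (-0.44 to 0.15), 0.31 ± 0.32 in iR2 (0.14 to 0.79) and 0.06 ± 0.11 in Wnt1 (-0.08 to 0.23). The iFGFR1 range lay inside that of Wnt1, but these means average genes that moved in opposite directions. Hspb8, a small chaperone gene, rose by 2.03 in iFGFR1, 1.35 in iFGFR2 and 1.21 in iR2 (adjusted p = 1.279e-06, 0.001176 and 0.00174). Bag3, whose protein works with that of Hspb8, fell by 1.23 in iFGFR1 and by 0.75 in iFGFR2 (adjusted p = 0.0003517 and 0.03867). For iR2 against iFGFR1, 2 of the 17 were higher and 1 lower, where 11.7% of all genes were called. Hspb1 was higher in iR2 by 1.59, Bag3 was higher by 0.94 and Hspb8 was lower by 0.82 (adjusted p = 0.001374, 0.006989 and 0.01266). The part of tissue handling in the values of Ier3, Nr4a1 and Egr1 was not tested.

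Markers of some other cell types moved with the groups as well, and those of others had few or 0 calls. The 8 fibroblast markers had a mean level of -3.51 ± 0.38 in iFGFR1 (range -3.83 to -2.95), -2.84 ± 0.25 in iFGFR2 (-3.00 to -2.47), -2.47 ± 0.08 in iR2 (-2.58 to -2.38) and -1.98 ± 0.48 in Wnt1 (-2.37 to -1.07). Of these 8, 6 fell in iFGFR1, 1 in iFGFR2 and 1 in iR2, Pdgfra by 2.61 in iFGFR1 (adjusted p = 8.33e-06). For this and the marker counts below, 15.4% of all genes were called in iFGFR1 (8.38% higher and 7.06% lower), 3.43% in iFGFR2 and 7.1% in iR2. The 6 neutrophil markers had a mean of -1.60 ± 0.24 in iFGFR1 (-1.93 to -1.36), -2.44 ± 0.32 in iFGFR2 (-2.76 to -2.03), -2.69 ± 0.23 in iR2 (-2.93 to -2.38) and -2.29 ± 0.29 in Wnt1 (-2.57 to -1.74). In iFGFR1 3 of the 6 rose, among them S100a8 by 2.56 (adjusted p = 0.000207), and 1 fell, the lactoferrin gene Ltf, by 1.70 (adjusted p = 0.04347). Of the 6 basal epithelial markers 1 rose and 3 fell in iFGFR1, and of the 6 luminal markers the number that rose was 2 in iFGFR1, 1 in iFGFR2 and 2 in iR2, with 0 that fell. The 6 endothelial markers had 0 calls in any of the comparisons with Wnt1 (lowest adjusted p = 0.1463, in iFGFR1, with 1 at an unadjusted p under 0.05). In iFGFR1, iFGFR2 and iR2 in turn, 1, 0 and 0 of 5 macrophage markers passed and 0, 0 and 1 of 4 T cell markers. Of 4 adipocyte markers 0 passed in each (lowest adjusted p = 0.05202, in iR2). The part of these cell types in the values of the early genes was not tested.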

How the data were processed

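The authors deposited 1 table of log2 ratios for 22575 array features and 18 arrays, with tumour RNA (column kit) in the Cy5 channel and whole-mouse reference RNA (TRIZOL) in the Cy3 channel, per the labels. The log base and direction are not written in the table and were read as base 2 and tumour over reference. Scanner, background correction and normalization: not given in the sources used here. No intensities were used, so signal over background is unknown. Features of 1 symbol (18658) were averaged to 16887 genes, and 3917 features with no or several symbols were left out. Groups came from the labels of the tumour channel, with replicates numbered in accession order. Tests used limma 3.58.1 in R 4.3.3 (lmFit, eBayes, no covariates), checked on simulated data, with Python 3.11.15 for summaries. The number of arrays limits the precision. The members, the lists and the markers were chosen with earlier results of these data known. Every member was described, along with up to 4 called genes per list and comparison by smallest p, and the 3 genes most correlated with each member that passed the F test. Alternatives covered centring, quantile normalization, scaling, array weights, priors, unaveraged features, arrays in the fit, title number, a variance filter and each array left out.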

Additional observations from a re-analysis of the deposited data

Results flagged for a closer look

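Of 40 sets of values (10 members in 4 groups), 4 held an array far from the others of its group by Dixon's criterion, and chance marks about 1 set in 20. They were Jun on iFGFR1 replicate 3, the lowest of its group at 1.0 while the other iFGFR1 arrays lay between 1.17 and 1.19, and Junb on iFGFR2 replicate 1, the lowest at -0.18. The others were Ier2 on iR2 replicate 1, the highest at 1.22, and Ier2 on Wnt1 replicate 6, the lowest at 0.34. None of these genes was called in any comparison with all arrays. Ier3 differed between the receptor groups iR2 and iFGFR1 by -1.04 in the test of that difference (limma, adjusted p = 0.01174, below on 4 of 4 arrays). In that comparison 13% of all genes lay wholly below and 11.7% were called in either direction.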

How the results depend on the processing

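No result changed sign while called. The counts of members called moved as follows. With 1 array left out they ran from 2 to 4 in iFGFR1 against Wnt1, 0 to 3 in iFGFR2, 0 to 2 in iR2 and 2 to 3 in the 3 receptor groups, 0 to 1 for iFGFR2 against iFGFR1, 1 to 1 for iR2 against iFGFR1, 0 to 0 for iR2 against iFGFR2 and 2 to 4 in the F test. For iFGFR2 against Wnt1 (2 called) the count was 0 with scaling, array weights or only the arrays compared, and 1 with the title number as a covariate. For iR2 against Wnt1 (0 called) it was 1 with quantile normalization, the robust prior or the variance filter, 2 with scaling or only the arrays compared, and 4 with array weights. With the title number as a covariate it was 0 for the 3 receptor groups (adjusted p = 0.1487 for Ier3, 0.1252 for Nr4a1 and 0.1092 for Egr1). These numbers are not balanced over the groups, and the iR2 arrays hold the highest. For iFGFR2 against iFGFR1 it was 1 with quantile normalization, for iR2 against iFGFR1 it was 0 with scaling or the title number, for iR2 against iFGFR2 it was 1 with scaling, and in the F test it was 5 with array weights. Leaving out Wnt1 replicate 3 and iFGFR2 replicate 1 together, chosen after seeing the data, gave 0 in iFGFR2, 2 in iR2 and 1 for iFGFR2 against iFGFR1. The causes were not tested.

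Over all genes, the counts with 1 array left out were 1750 to 3084 in iFGFR1 (2608 with all arrays), 99 to 1470 in iFGFR2 (579), 303 to 1883 in iR2 (1199), 1221 to 2831 in the 3 groups (2115), 183 to 530 for iFGFR2 against iFGFR1 (360), 1172 to 2338 for iR2 against iFGFR1 (1968), 19 to 326 for iR2 against iFGFR2 (227) and 2276 to 4160 in the F test (3311). The extremes of iFGFR2 were without its replicates 1 and 2. With only the arrays compared the count was 143 in iFGFR2, 2317 in iR2 and 71 for iFGFR2 against iFGFR1. With array weights it was 5207 in iR2, 3457 in the 3 groups, 202 for iFGFR2 against iFGFR1, 1138 for iR2 against iFGFR2 and 6319 in the F test. With the title number it was 52 in iR2, 659 in the 3 groups, 265 for iR2 against iFGFR1 and 2 for iR2 against iFGFR2. Scaling gave 3398 in iR2 (1404 higher and 1994 lower, against 660 and 539), 164 for iFGFR2 against iFGFR1, 3645 for iR2 against iFGFR1 and 2051 for iR2 against iFGFR2. Quantile normalization gave 22 for iR2 against iFGFR2 (10 higher and 12 lower, against 46 and 181) and in iR2 a split of 804 higher and 430 lower. Without both named arrays it was 2417 in iR2, 544 for iFGFR2 against iFGFR1 and 363 for iR2 against iFGFR2. No paired analysis was possible because the replicate numbers were given in accession order and the labels pair no arrays.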
